A study of Mus musculus with 6 samples.

Results

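The genes described here encode the coactivators YAP and TAZ (Yap1 and Wwtr1), the 4 TEAD transcription factors that carry them to DNA (Tead1 to Tead4) and 3 vestigial-like cofactors (Vgll2, Vgll3 and Vgll4). They were taken by gene symbol, and these 9 genes were found among 78317 rows of the deposited expression table. All 9 could be tested, among 13372 genes that passed the filter on low counts. The libraries came from MCEC, an immortalised line from mouse cardiac endothelium, with 3 wild-type control libraries and 3 libraries of MCEC carrying a short hairpin RNA against Fat4 (labelled ShFat4). Most endothelial marker genes had few or no counts in these libraries, while all 10 mesothelial marker genes could be tested (levels below). The name of the line thus gives its origin and not a cell identity shown here. The sources used here do not say whether controls received a control hairpin, whether the hairpin cells were 1 clone or whether libraries stand for separate cultures. P-values therefore rest on the spread between libraries, which may be only technical.

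YAP and TAZ are the output of the Hippo pathway. When the kinases LATS1 and LATS2 phosphorylate them they are held in the cytoplasm or degraded, and when they are not phosphorylated they enter the nucleus and bind TEAD factors, which hold the DNA contact that YAP and TAZ lack. VGLL proteins bind the TEAD factors at an overlapping surface, and VGLL4 is best known as a repressor that competes with YAP. Fat4 is an atypical cadherin placed upstream of this pathway in some tissues, and in endothelium YAP and TAZ are known for their part in sprouting and in the response to flow. Messenger RNA levels say nothing of where YAP and TAZ proteins lie or how far they are phosphorylated.

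The total count of a library lay between 10305810 and 11870091. Fat4, the targeted gene, had counts of 10, 22 and 31.5 in the controls, in the order of replicates 1 to 3, which is used throughout. Its counts were 8.5, 10 and 9 in the knockdown, so control replicate 1 lay within the knockdown range. The log2 fold change of Fat4 was -1.17 (SE 0.36, edgeR quasi-likelihood test with Benjamini-Hochberg adjustment, adjusted p = 0.039), and of the 6 fits that left out 1 library only the one without control replicate 1 made this call (edgeR adjusted p = 0.0026), the other 5 giving 0.088 to 0.21. Of 10 alternative fits with all libraries that tested Fat4, 8 made the call. It was lost with limma-voom (adjusted p = 0.067) and with correction for GC content and length (edgeR adjusted p = 0.057). DESeq2 gave Fat4 no adjusted p. Of 14 endothelial marker genes, 9 lay under 1 CPM (the count relative to the library's normalised total) in both groups. Of these, Pecam1 had means of 0.52 CPM (control) and 0.54 CPM (knockdown), Kdr 0.41 and 0.46, Tek 0.20 and 0.09, and Cdh5 0.03 in both. Tie1, Erg, Vwf, Cldn5 and Emcn had no count, where a count of 0 allows 0.25 to 0.29 CPM (3 counts, counting error only). The 5 tested endothelial markers included Cd34 at mean levels of 52.5 CPM (control) and 53.1 CPM (knockdown), and Eng (26.3 and 19.6 CPM) and Flt1 (7.61 and 5.07 CPM), which fell. The endothelial sum was 93.2 to 103 CPM in the controls and 84.9 to 90.4 CPM in the knockdown. All 10 mesothelial markers were tested, and their summed level was 1876 to 1983 CPM in control against 1640 to 1694 CPM in knockdown libraries, with 5 lower and 0 higher by edgeR. Most of that sum was Upk1b (mean 667 CPM in both groups), which was not called, and Upk3b (563 and 420 CPM), which fell. Krt8 (1.10 and 1.64 CPM) and Krt18 (1.14 and 1.27 CPM) were low, with higher knockdown means that were not called. Of 8 fibroblast markers, Col1a1 fell (mean 1964 and 1513 CPM) and Thy1 rose (16.7 and 20.8 CPM), with sums of 2012 to 2103 and 1567 to 1706 CPM that were mostly Col1a1, a median log2 fold change of 0.18 over the 5 tested, and Lum and Tcf21 at no count. Smooth muscle and pericyte markers summed to 605 to 681 CPM in controls and to 694 to 755 CPM in the knockdown. These sums were nearly all Tagln (mean 501 and 563 CPM) and Acta2 (138 and 159 CPM). The other 6 of the 8 markers lay under 1 CPM in both groups. Cardiomyocyte markers summed to 8.55 to 10.6 and 16.8 to 21.5 CPM, mostly Myl7 (mean 7.64 and 14.8 CPM), while Myh6, Myh7, Myl2, Nppa and Ryr2 had no count. Of the 3 tested cardiomyocyte markers, edgeR called 2 higher, Myl7 and Nppb (mean 0.91 and 2.49 CPM), and did not call Tnnt2. Leukocyte markers summed to 3.44 to 4.76 and 3.67 to 4.22 CPM. The part of these marker shifts in the results below was not tested, and in bulk libraries fewer cells of a type and less RNA per cell cannot be told apart.

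The stretch before the transcription start is shown for 4 members, Yap1 and Wwtr1 because their count ratio differed between the groups, and Tead2 and Tead3 because they fell together. Each run is the 250 bases before the most upstream start that RefSeq lists, on GRCm38.p6, written 5′ to 3′ on the gene's own strand. The build differs from the GRCm39 build of the gene coordinates given further on. Capitals mark the TEAD core motif, searched as GGAATG on the given strand and CATTCC on the other. The windows are chr9:8004597-8004846 on the minus strand for Yap1, chr3:57575911-57576160 on the minus strand for Wwtr1, chr7:45215542-45215791 on the plus strand for Tead2 and chr17:28350806-28351055 on the minus strand for Tead3.
Yap1: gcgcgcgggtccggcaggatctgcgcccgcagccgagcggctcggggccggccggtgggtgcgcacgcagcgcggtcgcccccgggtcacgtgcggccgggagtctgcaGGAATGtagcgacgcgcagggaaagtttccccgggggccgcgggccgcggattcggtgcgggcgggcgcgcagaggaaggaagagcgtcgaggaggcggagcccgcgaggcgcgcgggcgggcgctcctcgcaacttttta
Wwtr1: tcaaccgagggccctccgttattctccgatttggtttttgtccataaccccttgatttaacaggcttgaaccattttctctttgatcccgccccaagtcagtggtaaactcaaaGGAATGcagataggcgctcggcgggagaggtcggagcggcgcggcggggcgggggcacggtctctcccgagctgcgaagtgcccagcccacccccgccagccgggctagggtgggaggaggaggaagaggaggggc
Tead2: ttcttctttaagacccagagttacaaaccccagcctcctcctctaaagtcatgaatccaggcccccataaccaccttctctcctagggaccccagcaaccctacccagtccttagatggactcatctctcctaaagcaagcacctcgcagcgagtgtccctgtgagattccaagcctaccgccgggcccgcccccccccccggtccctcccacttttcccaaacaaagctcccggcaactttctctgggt
Tead3: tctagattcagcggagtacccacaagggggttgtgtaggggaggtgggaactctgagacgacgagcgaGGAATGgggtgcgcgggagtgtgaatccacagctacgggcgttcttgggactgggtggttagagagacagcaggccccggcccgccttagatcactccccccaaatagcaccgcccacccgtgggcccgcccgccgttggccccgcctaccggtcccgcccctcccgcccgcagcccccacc

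Of the 7 members with a promoter in the RefSeq table, 5 held the 6-letter motif on either strand, against 12.6% of 27025 genes with a window of the same length. The first base of the match lay 141 bases before the start in Yap1, 136 in Wwtr1, 182 in Tead3 and 82 in Vgll4, each on the gene's strand, and 63 bases before the start in Vgll3, on the other strand. No match lay in these windows of Tead2 and Vgll2. A match is a run of letters and not a shown binding site.

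In the knockdown, 4 of the 9 genes fell and 0 rose: Wwtr1, Tead1, Tead2 and Tead3, each by 13.7% to 18.7% (edgeR adjusted p from 0.014 to 0.034). Over all 13372 tested genes, 8.04% were called lower, 8.73% higher and 16.8% in either direction. At an unadjusted p under 0.05, 5 members were lower and 0 higher (15.6% and 15.2% of all genes). DESeq2, which gave 8 members an adjusted p, and limma-voom also called 4 lower and 0 higher. They called 5.18% and 7.88% of all genes lower. The median log2 fold change was -0.22 over the 9 members and -0.01 over all tested genes. Scaling by library size alone also gave 4 lower members, with 12.5% of all genes called lower, and moved the higher share of all calls from 52.1% to 33.4%. The count of 4 lower members also came from RLE and upper-quartile scaling (7.37% and 7.01% of all genes lower), no filter (4.32%), a filter at 10 CPM (11.7%), rounding down (8.1%), protein-coding genes alone (9%) and robust moderation (8.44%). It became 1 lower and 1 higher with correction for GC content and length, and 0 to 4 lower when 1 library was left out.

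**Figure D1:**
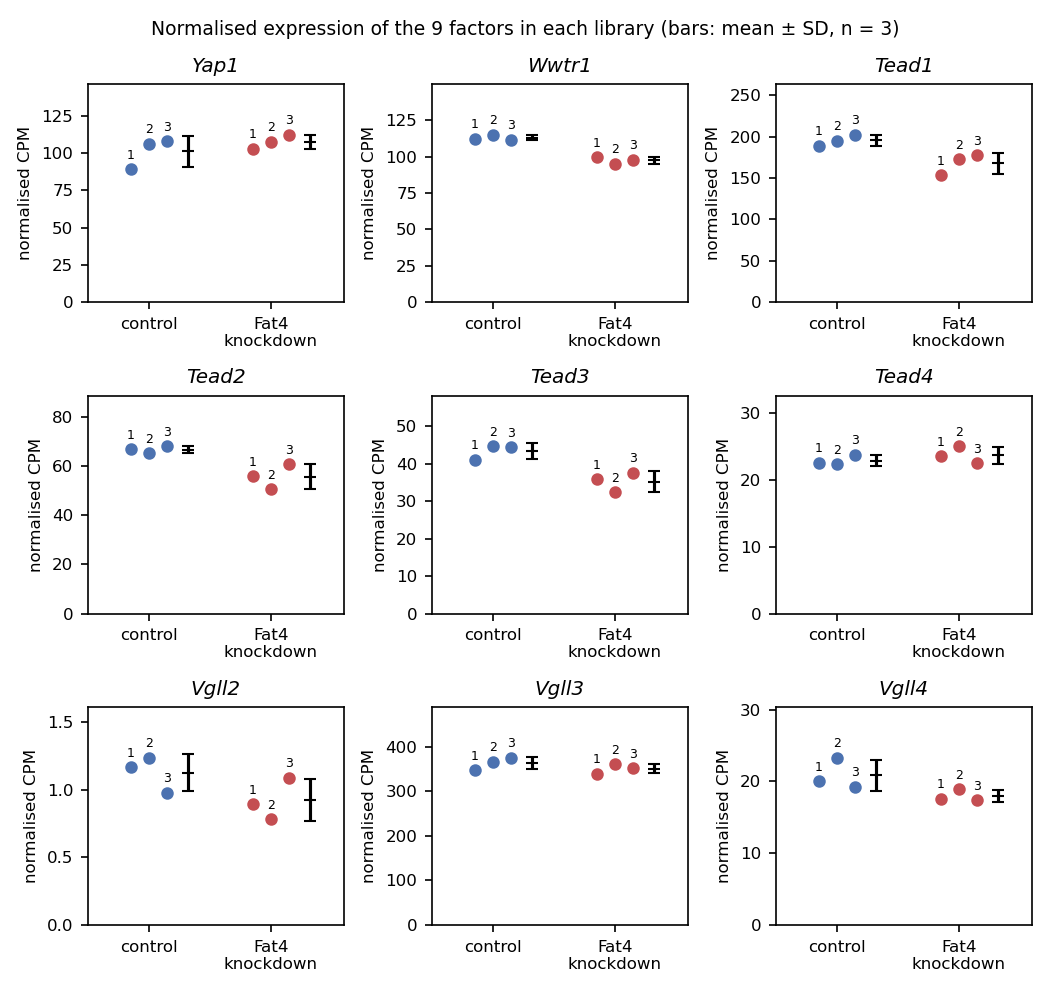
Normalised CPM (y axis, from 0) of each of the 9 genes in the 3 control and 3 Fat4 knockdown libraries; numbers beside points are replicate numbers and black bars are the mean ± SD of 3 libraries. Control and knockdown points are apart for Wwtr1, Tead1, Tead2, Tead3 and Vgll4 and overlap for Yap1, Tead4, Vgll2 and Vgll3.

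Of the coactivator genes, Wwtr1 fell and Yap1 did not pass the test. Wwtr1, which encodes TAZ (ENSMUSG00000027803, GRCm39 chromosome 3, exons spanning 57363070 to 57483331, minus strand), stood at 112, 115 and 112 CPM in the controls and at 99.8, 95 and 97.8 CPM in the knockdown. Every knockdown library lay below every control library, and the spread within a group was small, with SDs of 1.84 and 2.39 CPM. The fall was 13.7% (95% confidence interval of the change -20.8% to -5.84%; log2 fold change -0.21, SE 0.06, edgeR adjusted p = 0.024).

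Yap1, which encodes YAP (ENSMUSG00000053110, chromosome 9, 7932000 to 8004597, minus strand), stood at 89.3, 106 and 108 CPM in the controls and at 103, 108 and 113 CPM in the knockdown. The groups overlapped, and control replicate 1 was the low library. The difference did not pass the test (log2 fold change 0.09, 95% confidence interval -0.07 to 0.25, edgeR adjusted p = 0.47). As a change from the control level that interval runs from -5.01% to 19.0%. Without control replicate 1 the log2 fold change was 0.01. An antisense noncoding gene shares 116 of the 9257 exon bases of Yap1, and it had at most 1 count in a library.

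The ratio of Yap1 to Wwtr1 counts cancels library scaling. It was 0.80, 0.92 and 0.97 in the controls and 1.03, 1.14 and 1.15 in the knockdown. All 3 control libraries thus held fewer Yap1 than Wwtr1 counts, and all 3 knockdown libraries held more. The ratio was 1.24-fold higher in the knockdown, a log2 difference of 0.31 between group means of -0.16 ± 0.15 and 0.14 ± 0.08 (SD, n = 3). A two-sided exact permutation test gave p = 0.1, also after Benjamini-Hochberg adjustment over the 4 ratios computed, and with 3 libraries a group it cannot go below that value. Without control replicate 1 the log2 difference was 0.22.

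Of the TEAD genes, which encode the DNA-binding partners, Tead1, Tead2 and Tead3 fell and Tead4 did not pass the test. Tead1 (ENSMUSG00000055320, chromosome 7, 112278525 to 112506014, plus strand), which had the most counts of the 4, stood at 189, 195 and 202 CPM in the controls and at 154, 172 and 177 CPM in the knockdown. The highest knockdown library lay below the lowest control library, and knockdown replicate 1 was the lowest of all. Tead1 fell by 14.1% (95% confidence interval of the change -22.1% to -5.43%; log2 fold change -0.22, SE 0.07, edgeR adjusted p = 0.034).

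Tead2 (ENSMUSG00000030796, chromosome 7, 44865177 to 44883068, plus strand), known from early embryos and progenitor cells, stood at 66.7, 65.1 and 68.0 CPM in the controls and at 55.8, 50.5 and 60.8 CPM in the knockdown. The control libraries lay close together and the knockdown libraries spread more widely, with knockdown replicate 2 lowest. Tead2 fell by 16.4% (95% confidence interval of the change -24.6% to -7.17%; log2 fold change -0.26, SE 0.07, edgeR adjusted p = 0.023). On the other strand its exons share 215 bases with a noncoding gene that had 0 counts in every library and 13 bases with Cd37, which had at most 1 count in a library.

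Tead3 (ENSMUSG00000002249, chromosome 17, 28550645 to 28569791, minus strand), best known from placenta, stood at 41.1, 44.7 and 44.4 CPM in the controls and at 35.9, 32.3 and 37.6 CPM in the knockdown. As for Tead2, the groups were apart and knockdown replicate 2 was lowest. Its fall of 18.7% (95% confidence interval of the change -27.1% to -9.40%; log2 fold change -0.30, SE 0.07, edgeR adjusted p = 0.014) was the largest point estimate among the called members, with an interval that overlapped those of the other 3.

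Tead4 (ENSMUSG00000030353, chromosome 6, 128201251 to 128277786, minus strand), known for trophectoderm and muscle, stood at 22.5, 22.3 and 23.7 CPM in the controls and at 23.5, 25 and 22.5 CPM in the knockdown. The groups overlapped and the difference did not pass the test (log2 fold change 0.05, 95% confidence interval -0.12 to 0.22, edgeR adjusted p = 0.72). Its sign turned with library-size scaling (-0.01). The log2 ratio of Tead4 to Tead1 was higher in the knockdown by 0.27, to Tead2 by 0.31 and to Tead3 by 0.35. These 3 ratios were chosen after the values were seen and set Tead4 against genes already called lower, so they are given as descriptions. The two-sided exact permutation test gave p = 0.1 for each, the smallest value it can give, and nothing is drawn from it.

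**Figure D2:**
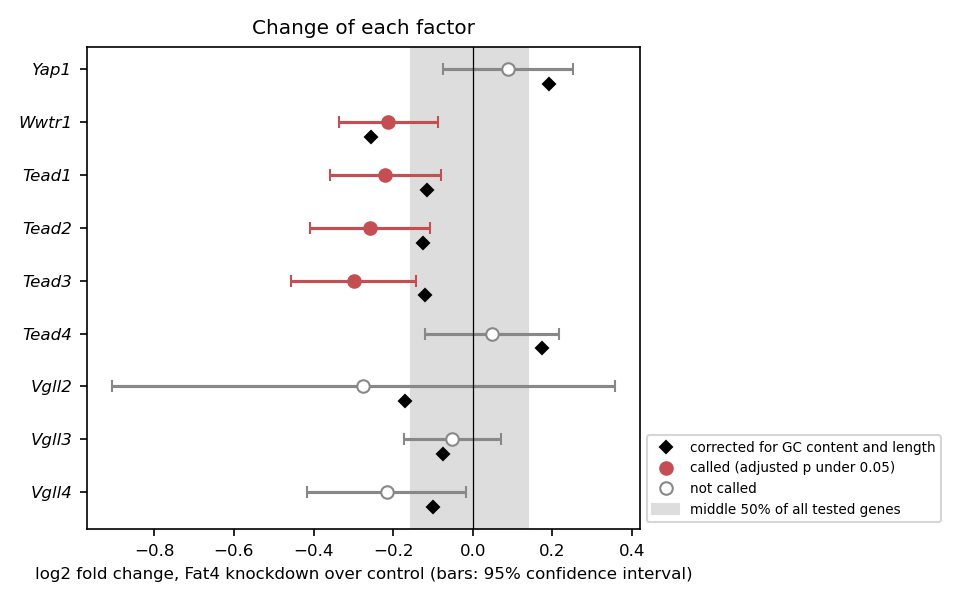
Log2 fold change of each gene, knockdown over control (x axis), with its 95% confidence interval from edgeR; filled red points passed an adjusted p of 0.05, black diamonds give the value after correction for GC content and length, and the grey band holds the middle 50% of all tested genes. Wwtr1, Tead1, Tead2 and Tead3 lie to the left of 0 with intervals that do not reach it, and after correction Tead1, Tead2 and Tead3 move to -0.12, -0.13 and -0.12 while Wwtr1 stays at -0.26.

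Scaled by the deposited gene length, Tead1 and Tead2 were the leading TEAD transcripts. Their shares of length-scaled TEAD counts were 35% ± 0.34 and 33.8% ± 0.69 in control libraries (SD, n = 3), with 15.7% ± 0.56 for Tead3 and 15.4% ± 0.23 for Tead4. In the knockdown libraries the shares were 34.5% ± 1.92, 32.4% ± 2.02, 14.7% ± 0.81 and 18.4% ± 1.65. Tead4 was the member whose share did not overlap between the groups, at 15.2% to 15.6% in control and 16.6% to 19.8% in knockdown libraries. A share depends on all 4 genes, and Tead1, Tead2 and Tead3 were called lower while Tead4 did not pass the test. The higher share is thus no separate sign of a change in Tead4. The summed level of the 4 genes was 328 ± 9.60 CPM for the controls against 282 ± 14.9 CPM for the knockdown (SD, n = 3), or 86.0% of control. Shares of counts not divided by length put Tead1 at 59.5% of the control sum and Tead4 at 6.96%, and the sources used here do not say whether reads cover the whole transcript.

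**Figure D3:**
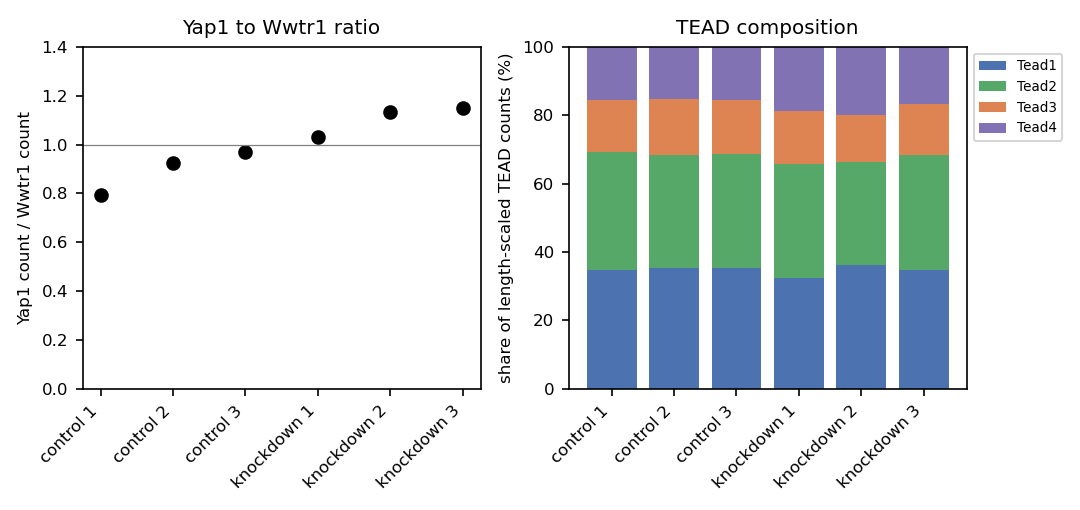
Left, the Yap1 count divided by the Wwtr1 count in each library, with a grey line at 1; right, the share of each TEAD gene in length-scaled TEAD counts (%) for the same 6 libraries. The ratio is 0.80 to 0.97 in control and 1.03 to 1.15 in knockdown libraries, and the Tead4 share is 15.2% to 15.6% against 16.6% to 19.8%.

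None of the 3 VGLL cofactor genes passed the test by edgeR, where Vgll4 alone had an unadjusted p under 0.05, and limma-voom called none of them. DESeq2 called neither Vgll3 nor Vgll4 and gave no adjusted p for Vgll2. Vgll3 (ENSMUSG00000091243, chromosome 16, 65612143 to 65663254, plus strand), a TEAD-binding cofactor, had the most counts of the 9 members. It stood at 347, 366 and 375 CPM in the controls and at 339, 360 and 351 CPM in the knockdown, and the groups overlapped (log2 fold change -0.05, 95% confidence interval -0.17 to 0.07, edgeR adjusted p = 0.59). As a change from the control level its interval runs from -11.3% to 4.97%.

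Vgll4 (ENSMUSG00000030315, chromosome 6, 114837589 to 114946955, minus strand), the TEAD repressor, stood at 20, 23.3 and 19.3 CPM in the controls and at 17.6, 18.9 and 17.4 CPM in the knockdown. The groups did not overlap, which held in the lower direction for 5 of 9 members and for 17.5% of all tested genes. The difference did not pass the test (log2 fold change -0.22, SE 0.09, edgeR adjusted p = 0.13), and it was -0.13 without control replicate 2, the highest library, and -0.10 with GC and length correction.

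Vgll2 (ENSMUSG00000049641, chromosome 10, 51898598 to 51904567, plus strand), known from skeletal muscle, was near the lower limit of what could be tested. It had 12, 14 and 12 counts in control and 10, 8 and 12 counts in knockdown libraries, and its interval (log2 fold change -0.27, 95% confidence interval -0.91 to 0.36, edgeR adjusted p = 0.63) was too wide to show a change at this depth. The remaining family gene, Vgll1, had 0 counts in all 6 libraries, which allows up to 0.29 CPM in a library.

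Per kilobase of the deposited gene length, the control order of levels was Vgll3 (51.1 ± 1.99 CPM per kilobase), Wwtr1 (23.6 ± 0.38), Tead1 (14.4 ± 0.49), Tead2 (13.9 ± 0.31), Yap1 (10.9 ± 1.12), Tead3 (6.46 ± 0.30), Tead4 (6.35 ± 0.22), Vgll4 (3.87 ± 0.40) and Vgll2 (0.68 ± 0.08, all SD, n = 3). In the control group the ranges of Tead1 and Tead2, and of Tead3 and Tead4, overlapped, and the other neighbours were apart. In the knockdown group Yap1 (11.6 ± 0.51) lay between Tead1 (12.4 ± 0.93) and Tead2 (11.6 ± 1.08) with overlapping ranges, and Tead4 (6.57 ± 0.35) lay above Tead3 (5.25 ± 0.40) with ranges apart. On this per-length scale Wwtr1 exceeded Yap1 in both groups, although their counts per library crossed. Across the 6 libraries, the log2 CPM patterns nearest to Yap1 among 8553 genes of at least 10 CPM were those of Itgav, an integrin subunit gene, and Ccdc124, with root mean square differences of 0.022 and 0.023 in log2 CPM. Those nearest to Wwtr1 were of Mpdu1 and Anln, the anillin gene, at 0.016 and 0.017, and with 6 libraries these are descriptions only.

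The 4 calls were sensitive to single libraries. Without control replicate 1, whose Fat4 level was low, 4 members were called lower, with 10.5% of all genes. In 3 fits, those without control replicate 2, without control replicate 3 and without knockdown replicate 2, edgeR called 0 members in either direction, with 4, 5 and 5 lower and 0 higher at an unadjusted p under 0.05. These fits called 3.35%, 3.99% and 4.16% of all genes lower. At an unadjusted p under 0.05, 11.9%, 12.4% and 13.2% of all genes were lower in them. Without knockdown replicate 1 it called 2 lower, Wwtr1 and Tead3 (4.35% of all genes), and without knockdown replicate 3 it called 3 lower, Tead1, Tead2 and Tead3 (5.3%). The sign of each called member held in all 18 alternative fits.

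Correction for GC content and length divided the members. GC content was 43.9% for Wwtr1, 47.9% for Tead1, 51.5% for Yap1, 57.7% for Tead2, 59.2% for Tead3 and 58.7% for Tead4, against a median of 49.7% over tested genes, and Tead1 was the longest at 13570 bases. In the corrected fit Wwtr1 remained lower (log2 fold change -0.26, edgeR adjusted p = 0.0054) and Yap1 passed the threshold as higher (0.19, edgeR adjusted p = 0.048). Tead1 (-0.12), Tead2 (-0.13) and Tead3 (-0.12) kept their sign and lost their calls, with edgeR adjusted p-values of 0.18, 0.23 and 0.27. The corrected fit thus called 1 member higher and 1 lower, with 12.8% of all genes called.

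**Figure D4:**
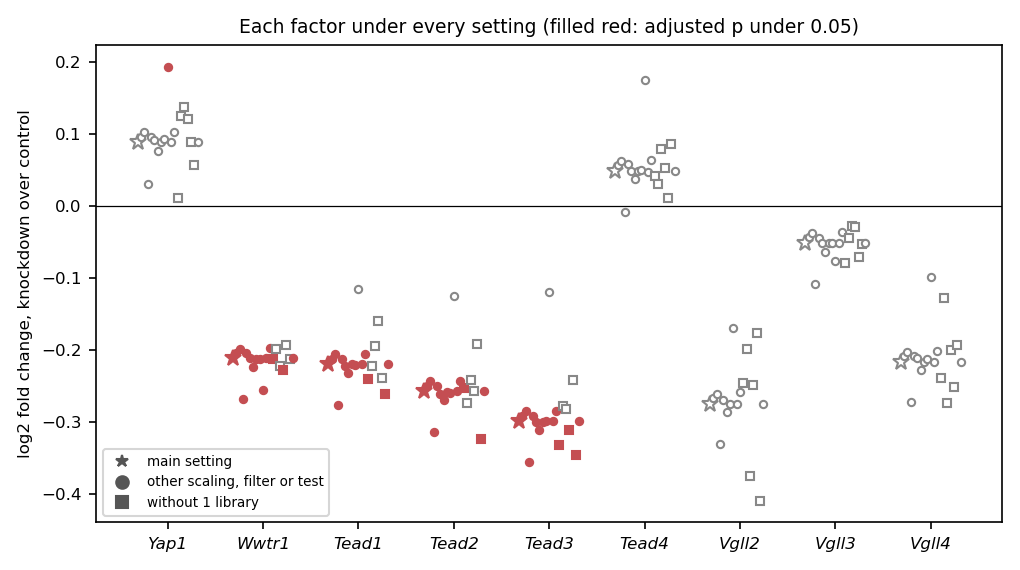
Log2 fold change, knockdown over control (y axis), of each gene under the main setting (star), 12 other scalings, filters, tests or corrections (circles) and the 6 fits without 1 library (squares); filled red marks passed an adjusted p of 0.05. Every value of Wwtr1, Tead1, Tead2 and Tead3 lies below 0, and the circle nearest 0 for each of the 3 TEAD genes is the GC and length correction.

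Genes that act upstream of YAP and TAZ were measured in the same libraries. Of 23 genes for Hippo kinases and upstream scaffolds, 22 could be tested, and 5 fell by edgeR while 0 rose (the list's median log2 fold change was -0.10, against -0.01 over all tested genes), where 8.04% of all genes were called lower and 8.73% higher. At an unadjusted p under 0.05, 7 were lower and 2 higher (15.6% and 15.2% of all genes). DESeq2 gave an adjusted p to 20 of these genes, Fat4 not among them, and called 3 lower and 0 higher (5.18% of all genes lower). Those that fell were the scaffold genes Wwc1 and Wwc2, the kinase genes Taok1 and Taok3, and Fat4, the target of the hairpin itself. The calls of Taok1 and Taok3 were each lost in 4 of the 6 fits without 1 library: both without control replicate 3, knockdown replicate 1 and knockdown replicate 3, Taok1 also without control replicate 2 and Taok3 also without knockdown replicate 2. Taok3 was not called by DESeq2, and with GC and length correction its log2 fold change was -0.11 (edgeR adjusted p = 0.26). Wwc1 stood at 131, 150 and 153 CPM in the controls and 103, 113 and 111 CPM in the knockdown (log2 fold change -0.41, SE 0.07, edgeR adjusted p = 0.0026). Wwc2 stood at 284, 307 and 317 CPM against 220, 231 and 240 CPM (log2 fold change -0.39, SE 0.06, edgeR adjusted p = 0.0016). Both scaffold genes were apart between the groups, and their calls held in all 18 alternative fits.

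The kinases that phosphorylate YAP and TAZ directly did not pass the test. Lats1 stood at 23.3 ± 2.92 CPM in the controls and 21.4 ± 1.57 CPM in the knockdown, and Lats2 at 85.9 ± 9.76 and 82.4 ± 3.96 CPM (SD, n = 3). Their log2 fold changes were -0.12 and -0.06. Nf2, which encodes the scaffold merlin, stood at 60.9, 62.9 and 63.6 CPM in the controls and 51.6, 57.6 and 56.9 CPM in the knockdown. Its groups were apart, yet the difference missed the threshold (log2 fold change -0.17, SE 0.06, edgeR adjusted p = 0.073) and passed it only with library-size scaling. Correction for GC content and length gave 3 higher and 3 lower genes here, the higher ones being Mob1b, Taok2 and Rassf1, named after their values were seen. Over all 12787 genes, the corrected fit called 947 higher and 686 lower.

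Of 24 genes for binding partners and turnover factors of YAP, TAZ and TEAD, 1 rose and 2 fell, at a median log2 fold change of -0.08. The 3 calls among 24 genes were a smaller share than the 16.8% called over all genes. Amotl2, whose product binds YAP and holds it in the cytoplasm, stood at 172, 177 and 172 CPM in the controls and 135, 144 and 144 CPM in the knockdown (log2 fold change -0.30, SE 0.06, edgeR adjusted p = 0.0041). Its groups were well apart, and its call was lost only with the GC and length correction among the fits run (log2 fold change -0.16, edgeR adjusted p = 0.065). Amotl1 (log2 fold change -0.12) did not pass the test, nor did Amot, at 6.31 ± 0.13 and 8.21 ± 1.61 CPM (SD, n = 3), with a log2 fold change of 0.39 (edgeR adjusted p = 0.089). Fosl1, an AP-1 subunit gene whose product sits with TEAD factors at shared enhancers, rose from 86.6, 102 and 98.6 CPM to 126, 118 and 128 CPM (log2 fold change 0.38, SE 0.07, edgeR adjusted p = 0.0038). The chromatin remodeller gene Smarca4 fell by 0.22 on the log2 scale, a call lost in 5 of the 6 fits without 1 library. After GC and length correction 3 genes of this list were called higher and 0 lower. These calls were 12.5% of the list, against 12.8% of all genes called in either direction (947 higher and 686 lower of 12787). At an unadjusted p under 0.05, 4 genes of the list were higher and 1 lower, against 14.7% and 12.1% of all genes.

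Of 22 YAP and TAZ target genes, which share Amotl2 and Ptpn14 with the partner list and Lats2 and Fjx1 with the Hippo list, 7 fell and 1 rose, at a median log2 fold change of -0.09, against 8.04% of all genes called lower and 8.73% higher. With GC and length correction 5 were lower and 1 higher, at a median of -0.01. Over all 12787 genes of that fit, 686 were called lower and 947 higher, at a median of 0.006. Of the 3 usual readout genes, Ankrd1 rose, and Ccn1 and Ccn2 did not pass the test. Ankrd1 stood at 149, 144 and 148 CPM in the controls and 227, 224 and 248 CPM in the knockdown (log2 fold change 0.66, SE 0.06, edgeR adjusted p = 5.2e-05). Ccn1 stood at 998, 973 and 990 CPM against 1065, 1023 and 1102 CPM, groups that were apart by a difference that did not pass the test (log2 fold change 0.11, SE 0.05, edgeR adjusted p = 0.20). Ccn2 stood at 659, 691 and 698 CPM against 696, 689 and 663 CPM, which overlapped (log2 fold change -0.00, 95% confidence interval -0.12 to 0.12, edgeR adjusted p = 0.999).

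The targets that fell were Igfbp3, Tgfb2, Ccdc80, Amotl2, Rbms3, Crim1 and Arhgef17. Igfbp3, which encodes a binding protein of insulin-like growth factors, stood at 76.1, 93.5 and 98.3 CPM in the controls and 49.4, 53.1 and 53.2 CPM in the knockdown, and control replicate 1 was the lowest control (log2 fold change -0.79, edgeR adjusted p = 0.00015). Ccdc80, a matrix protein gene, fell from 169 ± 8.02 to 118 ± 10.2 CPM and the growth factor gene Tgfb2 from 72.5 ± 4.72 to 50.7 ± 2.88 CPM (SD, n = 3). Their log2 fold changes were -0.53 and -0.52, with edgeR adjusted p-values of 0.00056 and 0.00052. The calls of Ankrd1, Igfbp3, Ccdc80 and Tgfb2, which had the smallest adjusted p-values of this list, held in all 18 alternative fits. Those of Crim1 and Rbms3 also held in all 18, while Amotl2 was called in 17 and Arhgef17 in 8. Wwtr1 and Tead3 were called in 14 and Tead1 and Tead2 in 13. Genes picked by a small adjusted p tend to keep their calls, so these counts do not compare targets with members.

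**Figure D5:**
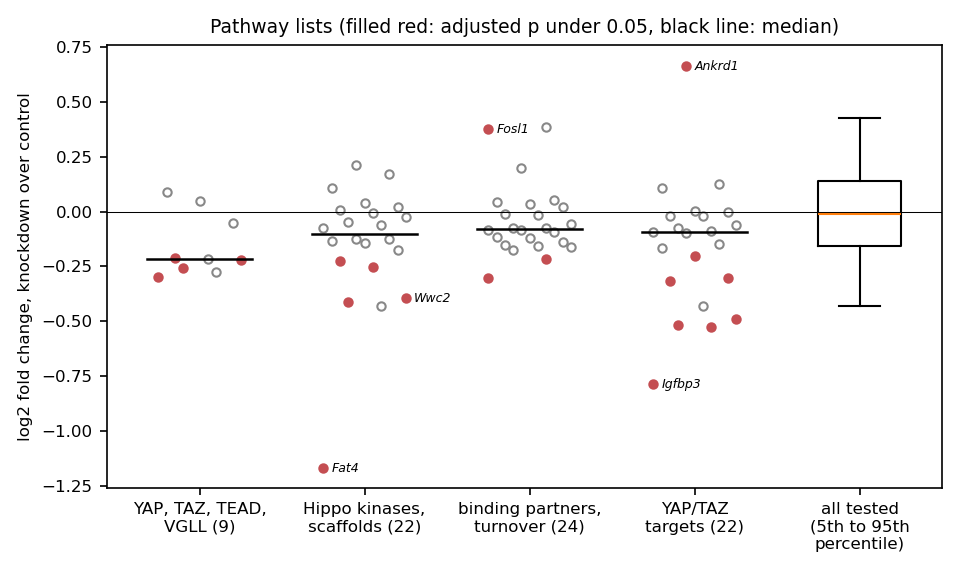
Log2 fold change, knockdown over control (y axis), of each tested gene in the YAP, TAZ, TEAD and VGLL set and in the 3 pathway lists, with black lines at list medians; filled red points passed an adjusted p of 0.05, and the box shows the quartiles of all tested genes with whiskers at the 5th and 95th percentiles. The 4 called members lie between -0.30 and -0.21, nearer 0 than Ankrd1 at 0.66 and Igfbp3 at -0.79.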

How the data were processed

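Messenger RNA of 6 MCEC libraries was sequenced as tagmented cDNA, per the labels' protocols. Per the submitters' processing notes, STAR 2.7.11 and SAMtools 1.22.1 were used with GRCm39, besides fastp 0.24.0, FastQC 0.12.1 and MultiQC 1.32. The sources used here name no counter, strand setting or annotation release. The authors deposited estimated counts per gene, 29.0% of nonzero values not being whole (tolerance 1e-06), and CPM values that, as deposited, equal each count over the library total. Without strand, reads of overlapping antisense genes cannot be told apart.

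A symbol on several rows was taken as the row of highest count. The 92 spike-in rows were left out and counts were rounded. After filterByExpr and TMM scaling, the whole table was fitted with glmQLFit and glmQLFTest of edgeR 4.0.16 in R 4.3.3, with no block, and a gene was called at an adjusted p (Benjamini-Hochberg) under 0.05. SEs are the log2 fold change over the square root of F. Normalised CPM uses unrounded counts and TMM-scaled library sizes. The ratio of Yap1 to Wwtr1 and those of Tead4 to Tead1, Tead2 and Tead3 were tested by a two-sided exact permutation test. Alternatives were scaling by RLE, upper quartile or library size, DESeq2 1.42.0, limma-voom (limma 3.58.1), no filter, a filter of 10 CPM in 3 libraries or more, a replicate block, offsets for GC content and length (mgcv 1.9-3, GC percent from a GRCm38 annotation for 95.6% of tested genes), rounding down, protein-coding genes only and each library left out. Robust moderation was added after seeing the data. No 2 libraries of a group agreed within sampling noise. By chi-square per degree of freedom between 2 libraries, control replicate 1 lay at 5.18 from control replicate 2 and 9.23 from control replicate 3. It lay at 6.13 from knockdown replicate 3, 6.92 from knockdown replicate 2 and 11.1 from knockdown replicate 1. Control replicate 1 was thus nearer to 2 knockdown libraries than to control replicate 3, while control replicates 2 and 3 lay at 2.45.

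The members and lists were chosen with earlier results of these data known. Named genes were the members, Fat4, up to 4 called genes of each pathway list by adjusted p, the usual YAP readouts, Nf2, Lats1, Lats2 and the Amot family, and the 2 genes nearest in pattern to Yap1 and to Wwtr1. Taok1 was named besides, after its values were seen. The workflow was also run on simulated data (13207 genes, knockdown against control). It recovered 15 of 50 genes changed 1.2-fold, 37 of 50 at 1.3-fold, 49 of 50 at 1.5-fold and 50 of 50 at 2-fold. Of its 159 calls, 8 were false. The real libraries gave 2242 calls, and 922 to 3032 when 1 library was left out. Whether the simulated spread between libraries matches the real spread was not tested. The recovery and false-call figures therefore describe the simulated data only and give no rates for the real calls. Promoter sequences are from RefSeq (GRCm38.p6), where 7 of 9 members matched by symbol. Figures were drawn with matplotlib 3.10.9.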

Additional observations from a re-analysis of the deposited data

How the results depend on the processing

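Under RLE, upper-quartile and library-size scaling, DESeq2, limma-voom, no filter, the 10 CPM filter, the replicate block, rounding down, protein-coding genes only and robust moderation, the count of called members stayed at 4, all lower. GC and length correction gave 2. Fits without 1 library gave 0 to 4 called members, 922 to 3032 called genes over the whole table (2242 with all libraries) and 2 to 5 called genes of the Hippo list (5), of which DESeq2 called 3. The Yap1 to Wwtr1 log2 ratio difference ranged from 0.22 to 0.37 in those fits. The small difference of the Tead1 share between groups, -0.50 percentage points, ranged from -1.39 to 0.52 and turned sign without knockdown replicate 1, which had the lowest Tead1 level. The fall of Arhgef17 turned to a log2 fold change of 0.017 with GC and length correction. The causes of these changes were not tested. Same-numbered libraries did not deviate together (correlations of -0.20, -0.16 and 0.14 over 8716 genes), so the numbers were not taken as pairs. Of the control libraries only replicate 3 correlated best with its own number. Control replicate 1 correlated best with knockdown replicate 2 (0.27), and control replicate 2 with knockdown replicate 1 (0.23). Whether libraries of different number shared handling was not tested. The replicate block gave 4 called members and 1958 called genes over the whole table (14.6%). At 8 to 14 counts a library, Vgll2 is limited by depth.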
